A study of Mus musculus with 24 samples.

Results

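Neuronal RNA-binding and splicing regulators were followed through the differentiation of neural stem cell cultures labelled wild-type or Mll1-deleted. The 7 genes described are Elavl2, Elavl3, Elavl4, Srrm4, Nova1, Ptbp2 and Ptbp1, taken by symbol from the array annotation, out of 21072 genes measured. They lie on 8 probe sets (Nova1 has 2), all with the cross-hybridisation code 1, the code of most probe sets on the array. Values are array intensities on a linear scale, and differences are on the log2 scale.

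Neurons process RNA with proteins that other cells largely lack. The neuronal Elavl proteins (Elavl2, Elavl3 and Elavl4, also called HuB, HuC and HuD) bind AU-rich stretches of RNA, often stabilise the messages that carry them, and are early signs that a cell has entered the neuronal lineage. Srrm4 promotes the inclusion of neuronal exons, among them short microexons, and Nova1 regulates exons of synaptic transcripts. Ptbp1 represses many neuronal exons in progenitors, including an exon of Ptbp2 whose skipping leads to decay of that message. As neurons form, Ptbp1 normally gives way to Ptbp2, which acts on an overlapping set of exons. The arrays were summarised per gene, so they measured the level of each regulator's RNA and not the splicing that it controls.

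Neural stem cells had been cultured from the subventricular zone of 6 mice. Mice 818, 862 and 870 were wild-type, and the labels give mice 489, 814 and 858 as Mll1-deleted. All were expanded in a medium with fetal bovine serum, EGF and FGF (day 0) and then differentiated without serum or growth factors for 1, 2 or 4 days. Each mouse gave 1 array per day, which makes 8 groups with n = 3 mice. The Cre line or other means of deletion, the strain and the ages of the mice are not given in the sources used here. Across genes, r between arrays of the same group was 0.984 to 0.996. The number of arrays limits the precision.

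Mll1 itself (Kmt2a, a histone H3 lysine 4 methyltransferase) was not lower in the cultures labelled Mll1-deleted. On day 0 its intensity was 428, 417 and 326 in the wild-type cultures and 580.0, 565 and 481 in the Mll1-deleted ones (log2 difference 0.48 ± 0.13 SE, limma, adjusted p = 0.0175). Where its probes lie relative to the deleted part is not known here, so the gene does not check the deletion, and the genotype is that of the labels. Markers of neural stem cells were present on day 0 in every culture, with Nes at 1795 or more and Sox2 at 2764 or more. Of the 5 markers listed, 0 were called higher and 2 lower in Mll1-deleted cultures on day 0 (10.1% of all genes called). From day 0 to day 2, 1 was higher and 3 lower in wild-type cultures (33.7% of all genes). In Mll1-deleted cultures 2 were higher and 0 lower (23.3%). The difference of changes on day 2 was called for 3 of the 5, all higher in Mll1-deleted cultures (4.80%). The 5 microglial markers summed to no more than 204 on any array, with Aif1 and Itgam at or near the lower quartile of the arrays (23.3 to 28.3).

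Promoter windows of 4 genes are shown because these genes differed between the genotypes on day 2 under every alternative run, Elavl3, Elavl4 and Srrm4 lower and Nova1 higher in Mll1-deleted cultures. Each sequence is the 250 bases upstream of an annotated start, 5′ to 3′ on the strand of the gene, from RefSeq on GRCm38.p6. They are chr9:22052024-22052273 (minus strand) for Elavl3, chr4:110287528-110287777 (minus strand) for the second of 4 annotated Elavl4 starts, chr5:116591818-116592067 (minus strand) for Srrm4 and chr12:46818768-46819017 (minus strand) for Nova1. Capitals mark matches to CAGCTG (an E-box), TATAAA (the TATA box) or GGGCGG (a GC box).
Elavl3: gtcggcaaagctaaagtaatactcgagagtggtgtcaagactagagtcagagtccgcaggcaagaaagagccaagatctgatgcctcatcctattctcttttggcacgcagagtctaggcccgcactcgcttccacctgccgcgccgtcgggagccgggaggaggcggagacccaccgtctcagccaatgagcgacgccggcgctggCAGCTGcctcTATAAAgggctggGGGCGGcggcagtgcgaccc
Elavl4: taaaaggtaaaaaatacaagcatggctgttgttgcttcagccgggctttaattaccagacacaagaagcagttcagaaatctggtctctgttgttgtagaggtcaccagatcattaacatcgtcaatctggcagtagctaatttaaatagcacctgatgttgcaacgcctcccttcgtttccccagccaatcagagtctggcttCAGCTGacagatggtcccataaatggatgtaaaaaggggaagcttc
Srrm4: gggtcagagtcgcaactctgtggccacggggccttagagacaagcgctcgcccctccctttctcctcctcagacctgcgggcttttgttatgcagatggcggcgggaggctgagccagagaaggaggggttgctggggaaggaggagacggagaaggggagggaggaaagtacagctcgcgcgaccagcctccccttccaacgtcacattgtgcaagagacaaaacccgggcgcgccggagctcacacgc
Nova1: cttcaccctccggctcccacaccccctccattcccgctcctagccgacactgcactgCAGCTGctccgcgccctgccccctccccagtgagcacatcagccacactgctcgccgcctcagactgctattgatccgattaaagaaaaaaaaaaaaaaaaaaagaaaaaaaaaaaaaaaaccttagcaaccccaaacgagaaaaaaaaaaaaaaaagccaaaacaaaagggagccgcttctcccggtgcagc

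The Elavl3 window holds all 3 motifs close to the start, with CAGCTG beginning 43 bases, TATAAA 33 bases and GGGCGG 20 bases before it. In Elavl4 CAGCTG begins 46 bases before the second start, and in Nova1 it begins 193 bases before the start. The other Elavl4 windows are not shown: start 3 lies close to start 2 and shares its CAGCTG, and starts 1 and 4 hold none of the motifs. The Srrm4 window holds none of them. Of the 6 windows of Elavl2, also lower on day 2, 0 hold CAGCTG and 5 hold GGGCGG. Both strands were searched, and no matches of different motifs overlapped. Among all 32536 RefSeq windows of this length, 13.1% hold CAGCTG, 33% hold GGGCGG and 12.3% hold TATAAA. These shares are per window, whereas Elavl2 and Elavl4 have several windows each, some of them overlapping and sharing the same match. The octamer ATGCAAAT, bound by POU factors such as the Brn4 of the series title, occurs in 1.62% of all windows, and TTCAGCACC, the left part of the REST element, in 0.301%. Neither occurs in any of the 15 windows of the 7 genes. These matches describe letters in a window and do not show binding.

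In wild-type cultures the 3 neuronal Elavl genes and Srrm4 rose by day 2, Ptbp1 fell, Ptbp2 rose briefly and Nova1 did not pass the test at any time. The day 2 call of Ptbp2 was lost when mouse 818, 862 or 870 was left out and with arrays shifted to a common median. On day 2, 6 of the 7 genes had changed from day 0, 5 higher and 1 lower, where 33.7% of all genes were called, 15.6% higher and 18.0% lower. The median log2 change of the 7 genes was 1.29, beside 0.06 for all genes. By day 4, 5 of 7 were called (4 higher, 1 lower), beside 37.5% of all genes (17.1% higher and 20.4% lower), with a median of 0.84. On day 1 only Elavl2 (higher) and Ptbp1 (lower) were called, beside 25.5% of all genes (11.7% higher and 13.8% lower). In bulk RNA, fewer cells of a type and less RNA per cell cannot be told apart.

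In the Mll1-deleted cultures Nova1 and Ptbp2 were the 2 genes called on day 1, both higher (12.4% of all genes were called, 5.87% higher and 6.52% lower). On day 2, 4 of 7 were higher and 1 lower (23.3% of all genes called, 9.41% higher and 13.9% lower), with a median change of 0.51, and on day 4, 5 were higher and none lower (29.6% of all genes called, 13.9% higher and 15.7% lower), with a median of 1.22. Both sets of changes are measured from the day 0 cultures of their own genotype.

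**Figure D1:**
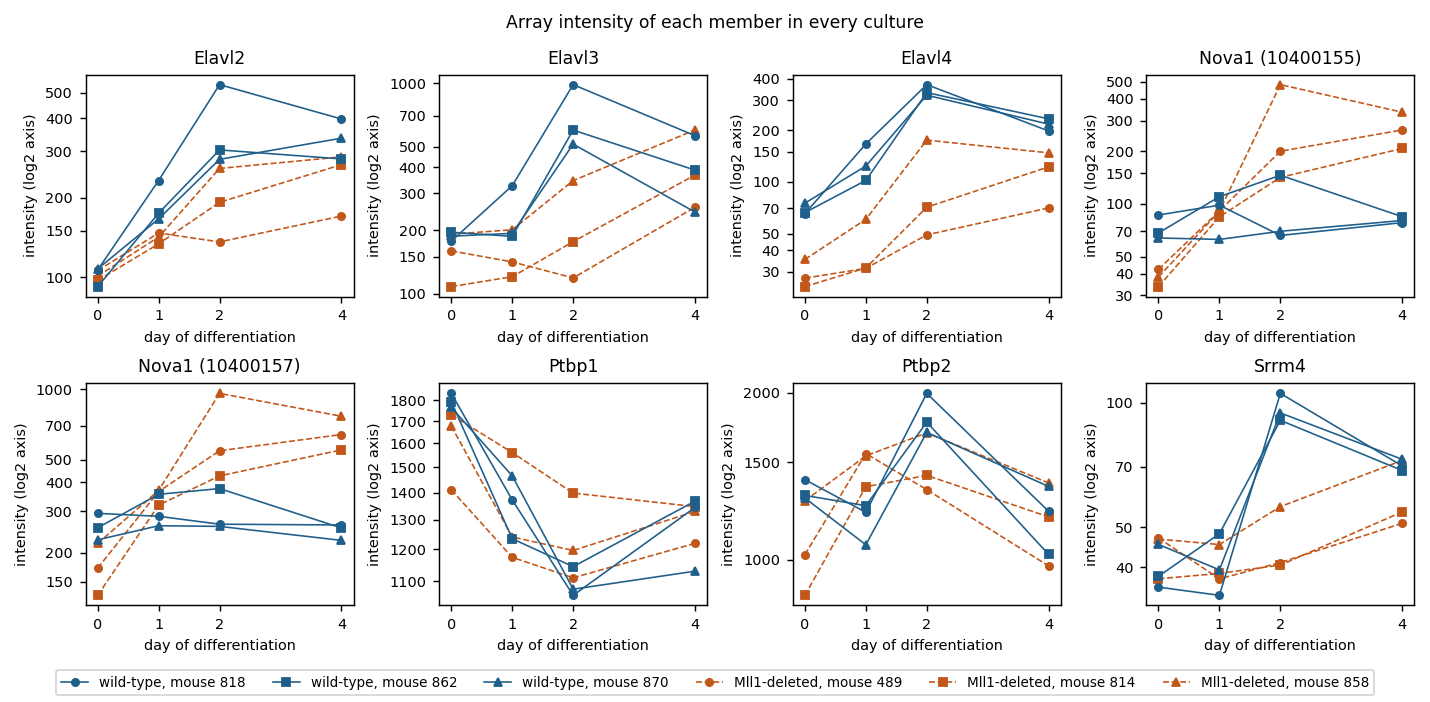
Array intensity (log2 axis) of each probe set against the day of differentiation, with 1 line per mouse, solid for wild-type and dashed for Mll1-deleted cultures. Elavl2, Elavl3, Elavl4 and Srrm4 peak on day 2 in most wild-type cultures, both Nova1 probe sets climb in the Mll1-deleted ones, and Ptbp1 falls in both.

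Elavl4 (HuD; probe set 10515095) showed the widest range. In wild-type mice 818, 862 and 870 its intensity was 65.3, 66.3 and 75.2 on day 0, 166, 102 and 124 on day 1, 369, 332 and 321 on day 2, and 198, 233 and 217 on day 4. In Mll1-deleted mice 489, 814 and 858 it was 27.5, 24.5 and 35.3 on day 0, 31.3, 31.5 and 60.5 on day 1, 49.1, 71.2 and 175 on day 2, and 70.5, 122 and 148 on day 4. Every Mll1-deleted culture lay below every wild-type culture of its day, on all 4 days, and the day 0 values of the Mll1-deleted cultures were close to the lower quartile of the arrays (23.3 to 28.3). Folds against these low day 0 values are fitted values and not exact ratios of RNA.

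Within the wild-type cultures Elavl4 rose 4.94-fold by day 2 (log2 2.30 ± 0.33 SE, adjusted p = 1.05e-05) and was still 3.14-fold higher on day 4 (1.65 ± 0.33, adjusted p = 0.000356). On day 1 its wild-type groups did not overlap with day 0, but the change of 0.90 missed the threshold (adjusted p = 0.0514), which it passed with the mouse as a block (adjusted p = 0.00218). In Mll1-deleted cultures it rose from that low level by day 2 (log2 1.56 ± 0.33, adjusted p = 0.0014) and by day 4 (1.92 ± 0.33, adjusted p = 0.000128). The difference of changes did not pass, and since it rests on the low day 0 values, equal or unequal folds cannot be read from it. It was -0.74 on day 2 (95% interval -1.72 to 0.23, adjusted p = 0.478) and 0.27 on day 4 (-0.71 to 1.24, adjusted p = 0.842). Without mouse 858, whose Elavl4 was the highest of the 3 on every day, the day 2 difference of changes was -1.12 (adjusted p = 0.022).

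The lower Elavl4 of the Mll1-deleted cultures was present before differentiation began. It was lower on day 0 (log2 -1.26 ± 0.30 SE, adjusted p = 0.0074) and on day 1 (-1.71 ± 0.30, adjusted p = 0.000667). The Mll1-deleted values of these days were near the lower quartile, except for mouse 858 on day 1. On day 2 Elavl4 was 4.00-fold lower (-2.00 ± 0.30, adjusted p = 0.000122). The day 4 difference of -0.99 ± 0.30 fell just short (adjusted p = 0.0508) and passed without mouse 858 (adjusted p = 0.000925). Without mouse 814 or mouse 870 the day 0 call was lost (adjusted p = 0.0629 and 0.0759). Elavl4 was the only one of the 7 genes called on day 0, where 10.1% of all genes were called, on day 1 (7.45% of all genes) and over the mean of the 4 days per mouse (7.30% of all genes; -1.49 ± 0.23, adjusted p = 0.00626).

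Elavl3 (HuC; probe set 10591706), which is expressed in most neurons, had intensities of 178, 196 and 188 in wild-type mice 818, 862 and 870 on day 0. It reached 326, 187 and 193 on day 1, 986, 599 and 514 on day 2, and 564, 387 and 244 on day 4. Cultures of Mll1-deleted mice 489, 814 and 858 gave 159.7, 108 and 192 on day 0, 142, 120.3 and 201 on day 1, 119, 177 and 345 on day 2, and 258, 367 and 601 on day 4. The day 2 groups of the genotypes did not overlap, whereas on day 4 they did.

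By day 2 wild-type Elavl3 had risen 3.60-fold (log2 1.85 ± 0.37 SE, adjusted p = 0.000372). On day 4 it was 2.01-fold above day 0 (1.01 ± 0.37, adjusted p = 0.0333), which no longer passed without mouse 818 (0.68, adjusted p = 0.237), without mouse 862 (adjusted p = 0.131) and with the arrays shifted to a common median (adjusted p = 0.064). The Mll1-deleted cultures showed no called change on day 2 (0.38, 95% interval -0.38 to 1.14, adjusted p = 0.537) and a 2.58-fold rise on day 4 (1.37 ± 0.37, adjusted p = 0.00651). That rise was lost without mouse 814 (1.17, adjusted p = 0.0832). Between the genotypes, Elavl3 was 3.48-fold lower in Mll1-deleted cultures on day 2 (-1.80 ± 0.33, adjusted p = 0.00098), and on day 4 the difference was 0.03 (95% interval -0.66 to 0.72). The difference of changes on day 2 was -1.47 and missed the threshold (adjusted p = 0.114), but passed it with the mouse as a block (adjusted p = 0.00543) and without mouse 858 (-1.70, adjusted p = 0.0219).

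Elavl2 (HuB; probe set 10514352) was not shown to differ between the genotypes on day 0. Its day 0 intensities were 106, 92.0 and 107 in wild-type mice 818, 862 and 870 and 106, 97.1 and 101 in Mll1-deleted mice 489, 814 and 858, a difference of -0.01 with a 95% interval of -0.46 to 0.45. Wild-type values were 232, 175 and 166 on day 1, 537, 303 and 279 on day 2, and 398, 280.5 and 336 on day 4. The Mll1-deleted values were 147, 134 and 142 on day 1, 136, 192 and 258 on day 2, and 170.3, 267 and 286 on day 4. On days 1 and 2 the genotypes did not overlap, and on day 4 the highest Mll1-deleted culture stood just above the lowest wild-type one.

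Elavl2 was the only neuronal Elavl gene to pass the test in wild-type cultures on day 1, when it was 1.86-fold higher (log2 0.89 ± 0.23 SE, adjusted p = 0.00569). It reached 3.51-fold on day 2 (1.81 ± 0.23, adjusted p = 2.35e-06) and 3.29-fold on day 4 (1.72 ± 0.23, adjusted p = 2.97e-06). In Mll1-deleted cultures it rose 1.87-fold by day 2 (0.90 ± 0.23, adjusted p = 0.00627) and 2.32-fold by day 4 (1.22 ± 0.23, adjusted p = 0.000335). The day 2 rise was lost without mouse 814 (adjusted p = 0.0668) or mouse 858 (0.67, adjusted p = 0.0954). On day 2 it was 1.89-fold lower in Mll1-deleted than in wild-type cultures (-0.92 ± 0.22, adjusted p = 0.00931), which no longer passed without mouse 489 (adjusted p = 0.0796), without mouse 818 (adjusted p = 0.125) and on the arrays of day 2 alone (adjusted p = 0.0691). The difference of changes was -0.91 (adjusted p = 0.123), called with the mouse as a block (adjusted p = 0.0272) and without mouse 858 (-1.14, adjusted p = 0.0469).

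Srrm4 (nSR100; probe set 10533055) was dim throughout and had its highest values in wild-type cultures on day 2. In wild-type mice 818, 862 and 870 it was 35.8, 38.0 and 45.4 on day 0, 34.2, 48.2 and 39.4 on day 1, 105, 90.6 and 94.4 on day 2, and 70.3, 68.5 and 72.9 on day 4. In Mll1-deleted mice 489, 814 and 858 it was 47.1, 37.5 and 46.8 on day 0, 37.5, 38.7 and 45.4 on day 1, 41.1, 40.5 and 56.1 on day 2, and 51.1, 54.4 and 72.5 on day 4. All 3 wild-type cultures on day 2 lay above every other array of the series.

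Wild-type Srrm4 rose 2.44-fold from day 0 to day 2 (log2 1.29 ± 0.15 SE, adjusted p = 1.02e-06), with a change on day 1 of 0.02 (adjusted p = 0.942). Day 4 was 1.78-fold above day 0 (0.84 ± 0.15, adjusted p = 0.000136), and the drop of 0.45 from day 2 to day 4 missed the threshold (-0.45 ± 0.15, adjusted p = 0.058) but passed with the mouse as a block (adjusted p = 0.0164). In Mll1-deleted cultures the day 2 change was 0.06 (95% interval -0.26 to 0.38). A 1.35-fold rise on day 4 (0.43 ± 0.15, adjusted p = 0.0396) was lost without mouse 814, 858, 862 or 870 (adjusted p between 0.0512 and 0.187), on the Mll1-deleted arrays alone (adjusted p = 0.0878) and with arrays shifted to a common median (0.30, adjusted p = 0.13).

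On day 2 Srrm4 was 2.13-fold lower in Mll1-deleted than in wild-type cultures (-1.09 ± 0.15, adjusted p = 4.02e-05). The rise itself differed between the genotypes, with a difference of changes of -1.23 ± 0.22 (adjusted p = 0.00138). Neither call was lost under any alternative run. On day 4 the genotypes differed by -0.27 (95% interval -0.58 to 0.04), which did not pass.

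Nova1 rose in the Mll1-deleted cultures and was not shown to move in the wild-type ones. Its brighter probe set (10400157) read 294, 255 and 227 in wild-type mice 818, 862 and 870 on day 0, 286, 355 and 261 on day 1, 265, 376 and 259 on day 2, and 263, 255 and 226 on day 4. The Mll1-deleted mice 489, 814 and 858 gave 172, 131 and 219 on day 0, 365, 319 and 369 on day 1, 546, 426 and 962 on day 2, and 641, 551 and 768 on day 4. The Mll1-deleted cultures began below every wild-type culture and ended above all of them, with no overlap on days 0, 2 and 4.

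The wild-type level was not shown to move, with changes from day 0 of 0.20 on day 2 (95% interval -0.27 to 0.67) and -0.06 on day 4 (-0.53 to 0.41). In Mll1-deleted cultures Nova1 rose 2.06-fold by day 1 (log2 1.04 ± 0.23 SE, adjusted p = 0.00324), 3.57-fold by day 2 (1.84 ± 0.23, adjusted p = 6.24e-06) and 3.80-fold by day 4 (1.93 ± 0.23, adjusted p = 1.45e-06). The day 1 call was lost without mouse 489 (adjusted p = 0.0639). Relative to wild-type, Nova1 was 2.06-fold higher on day 2 (1.04 ± 0.21, adjusted p = 0.00199) and 2.62-fold higher on day 4 (1.39 ± 0.21, adjusted p = 0.000144). The lower start on day 0 (-0.60 ± 0.21) did not pass (adjusted p = 0.0733), except without mouse 858 (-0.78, adjusted p = 0.00273).

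The change in Nova1 differed between the genotypes by 1.64 ± 0.32 on day 2 (adjusted p = 0.00346) and 1.99 ± 0.32 on day 4 (adjusted p = 0.000698). The day 2 difference was lost without mouse 818 (1.46, adjusted p = 0.0605). On day 1 the difference of 0.83 did not pass (adjusted p = 0.22), but did with the mouse as a block (adjusted p = 0.0228).

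The second Nova1 probe set (10400155) also rose in the Mll1-deleted cultures, at lower intensities. It read 86.5, 68.3 and 63.9 in the wild-type cultures on day 0, 98.4, 110.1 and 62.7 on day 1, 66.1, 146 and 69.8 on day 2, and 78.2, 84.6 and 80.5 on day 4. The Mll1-deleted cultures read 42.3, 33.7 and 38.2 on day 0, 91.2, 84.5 and 90.9 on day 1, 200.2, 142 and 481 on day 2, and 265, 208 and 335 on day 4. On day 2 the genotypes overlapped on this probe set, with wild-type mouse 862 just above Mll1-deleted mouse 814. The rise in Mll1-deleted cultures was 2.80 on the log2 scale by day 4 (adjusted p = 1.11e-06), and the difference of changes was 2.38 on day 2 (adjusted p = 0.00309) and 2.63 on day 4 (adjusted p = 0.00121). Every Nova1 comparison fell on the same side of the threshold with either probe set.

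**Figure D2:**
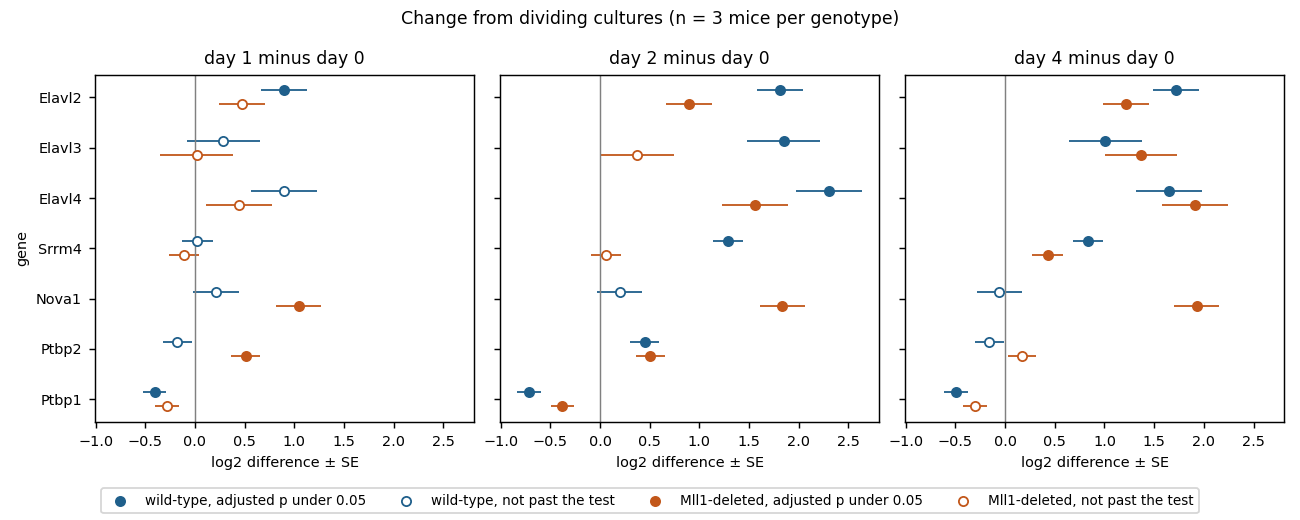
Change in intensity from day 0 (log2 ± SE of the limma fit, n = 3 mice per group) of the 7 genes on days 1, 2 and 4, for each genotype. The day 2 change of Srrm4 is 1.29 in wild-type and 0.06 in Mll1-deleted cultures, and the day 4 change of Nova1 is -0.06 and 1.93.

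Ptbp1, the repressor of neuronal exons in progenitors, fell in both genotypes. In wild-type mice 818, 862 and 870 its intensity (probe set 10364518) was 1833, 1792 and 1764 on day 0, 1373, 1235 and 1465 on day 1, 1059, 1145 and 1077 on day 2, and 1345, 1368 and 1131 on day 4. In Mll1-deleted mice 489, 814 and 858 it was 1411, 1729.8 and 1677 on day 0, 1174, 1561 and 1241 on day 1, 1111, 1398 and 1197 on day 2, and 1220.02, 1348 and 1330.4 on day 4. Each culture was below its own day 0 level on every later day.

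The fall was 1.64-fold by day 2 in wild-type cultures (log2 -0.72 ± 0.12 SE, adjusted p = 5.51e-05) and 1.30-fold in Mll1-deleted ones (-0.38 ± 0.12, adjusted p = 0.0228). The wild-type fall was already called on day 1 (-0.41 ± 0.12, adjusted p = 0.0133) and again on day 4 (-0.49 ± 0.12, adjusted p = 0.00199). With mouse 818 or mouse 862 left out, the day 1 call did not pass (adjusted p = 0.0885 and 0.143). In Mll1-deleted cultures the day 2 call was lost without mouse 489 (adjusted p = 0.059), without mouse 858 (adjusted p = 0.177) and on the Mll1-deleted arrays alone (adjusted p = 0.0736). The day 4 change there, -0.30, missed the threshold (adjusted p = 0.0603), which it passed with the mouse as a block (adjusted p = 0.0233) and with arrays shifted to a common median (-0.43, adjusted p = 0.0118). The extent of the fall was not shown to differ between the genotypes, with a difference of changes on day 2 of 0.34 (adjusted p = 0.316).

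Ptbp2, the neuronal paralogue, was bright on every array. In wild-type mice 818, 862 and 870 its intensity (probe set 10501778) was 1394, 1306 and 1292 on day 0, 1217, 1251 and 1064 on day 1, 1997, 1771 and 1697 on day 2, and 1223, 1022 and 1356 on day 4. For Mll1-deleted mice 489, 814 and 858 it was 1021, 862 and 1277 on day 0, 1554, 1354 and 1539 on day 1, 1338, 1419.7 and 1694 on day 2, and 974, 1194 and 1376 on day 4. The wild-type cultures peaked together on day 2, whereas every Mll1-deleted culture was above its day 0 level by day 1.

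In wild-type cultures Ptbp2 rose 1.37-fold from day 0 to day 2 (log2 0.45 ± 0.15 SE, adjusted p = 0.019), but the call was lost when mouse 818, 862 or 870 was left out (adjusted p between 0.0656 and 0.128) and with arrays shifted to a common median (0.31, adjusted p = 0.106). It then fell 1.52-fold to day 4 (-0.61 ± 0.15, adjusted p = 0.00724), the single called gene of the 7 between these days (12.2% of all genes). It did not pass without mouse 818 (adjusted p = 0.0773) or without mouse 862 (adjusted p = 0.129). In Mll1-deleted cultures it rose 1.42-fold by day 1 (0.51 ± 0.15, adjusted p = 0.0223) and 1.42-fold by day 2 (0.51 ± 0.15, adjusted p = 0.0132). The day 1 call was lost without mouse 489 or 814 (adjusted p = 0.163 and 0.148) and on the Mll1-deleted arrays alone (adjusted p = 0.131), and the day 2 call without mouse 814 (adjusted p = 0.15) and on those arrays (adjusted p = 0.0639). The difference of changes on day 1 was 0.69 (adjusted p = 0.0852), called with the mouse as a block (adjusted p = 0.0231).

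Over consecutive sampling days, the step from day 1 to day 2 in wild-type cultures held 5 called genes, all higher (4.96% of all genes were called, 2.28% higher and 2.68% lower, a count of 1045 that ranged from 207 to 1462 with a mouse left out). These were Elavl2, Elavl3, Elavl4, Ptbp2 and Srrm4. Leaving out mouse 818, 862 or 870 left only Srrm4 called (1.26 ± 0.15 with all mice, adjusted p = 5.2e-05). In Mll1-deleted cultures, limma called 0 of the 7 genes from day 1 to day 2 (0.389% of all genes, or 82, and 5 to 203 with a mouse left out) and 0 from day 2 to day 4 (14.9%), where 2 and 3 of the 7 genes had an unadjusted p under 0.05. With the mouse as a block, Elavl4 (1.12, adjusted p = 0.00709) and Nova1 (0.79, adjusted p = 0.00732) passed between days 1 and 2. Elavl3 (0.99, adjusted p = 0.00385) and Srrm4 (0.37, adjusted p = 0.0425) passed between days 2 and 4. In wild-type cultures the block added drops from day 2 to day 4 of Elavl3 (-0.84, adjusted p = 0.013; 0.154 without the block) and Elavl4 (-0.66, adjusted p = 0.0333; 0.233 without it).

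Set side by side by genotype, the 7 genes differed most often on day 2. On that day Elavl2, Elavl3, Elavl4 and Srrm4 were lower and Nova1 was higher in Mll1-deleted cultures, 5 of 7 genes, beside 8.74% of all genes (4.01% higher and 4.73% lower). The median log2 difference of the 7 genes was -0.92, and that of all genes -0.03. On day 4 only Nova1 was called (6.46% of all genes). Ptbp1 and Ptbp2 passed on no day, with day 4 differences of 0.02 (95% interval -0.21 to 0.26) and -0.03 (-0.32 to 0.27). Of the differences of changes, 2 of the 7 genes passed on day 2 (Srrm4 and Nova1, 4.80% of all genes) and 1 on day 4 (Nova1, 5.83%), and limma called 0 on day 1 (2.43%), with 2 at an unadjusted p under 0.05.

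**Figure D3:**
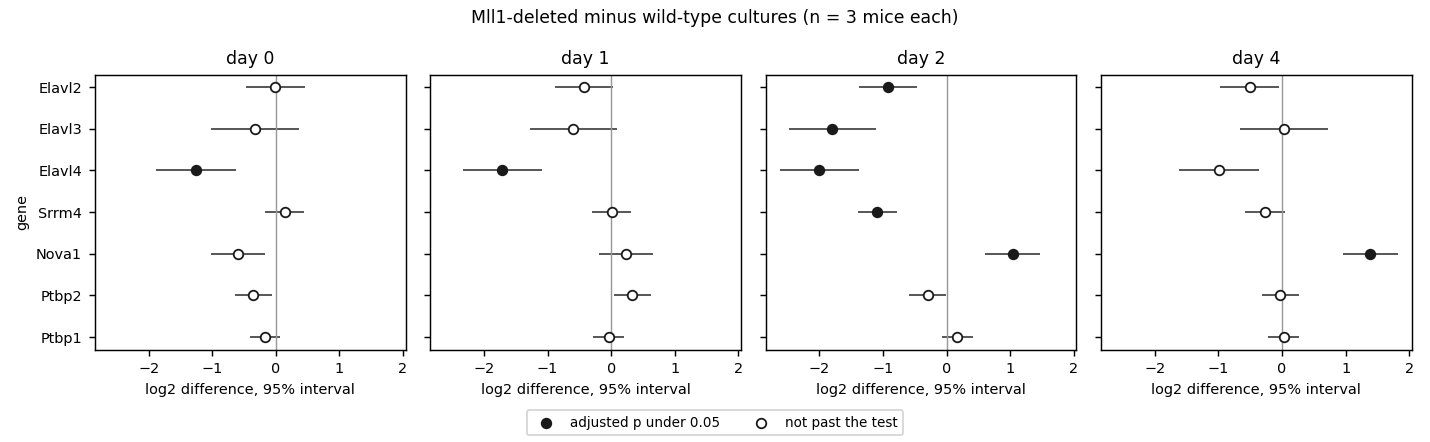
Mll1-deleted minus wild-type intensity (log2, with 95% intervals, n = 3 mice per genotype) of the 7 genes on each day, where filled points passed an adjusted p of 0.05. On day 2, 4 genes lie to the left and Nova1 to the right, and on day 4 only Nova1 passed.

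Cultures of the same genotype differed in both genotypes. On day 2 the standard deviation of log2 Elavl2 was 0.51 in wild-type and 0.46 in Mll1-deleted cultures. For Elavl3 it was 0.49 and 0.78, and for Elavl4 0.11 and 0.94. The 3 Elavl genes ranked the wild-type cultures alike on day 2, highest in mouse 818 and lowest in mouse 870. They ranked the Mll1-deleted cultures alike on days 2 and 4. On these 2 days Elavl2, Elavl3 and Elavl4 were each lowest in mouse 489 and highest in mouse 858. Dcx, a microtubule protein of neuroblasts, had the same order, at 90.8, 271 and 879 on day 2 and 300.0, 881 and 1624 on day 4. In wild-type mice 818, 862 and 870 Dcx was 2563, 2040.4 and 2083.5 on day 2 and 1592, 1179.8 and 1387 on day 4. In Mll1-deleted cultures Nova1 was also highest in mouse 858 on these days. It did not follow the full order, since it was lowest in mouse 814. Srrm4 followed the order on day 4 but not on day 2 (41.1, 40.5 and 56.1), when it was also highest in mouse 858.

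Markers of cell types also moved. On day 0 Elavl4 was lower in Mll1-deleted cultures. Of 8 neuroblast and neuron markers, 2 were higher and 2 lower there (10.1% of all genes called). The summed intensity of the 8 was 2288 to 3071 against 2024 to 2151 in wild-type cultures. Their median log2 difference was -0.22, in the other direction, since the sum weighs bright markers most. All 8 neuroblast and neuron markers were called higher on days 2 and 4 in wild-type cultures (15.6% and 17.1% of all genes). Their sum was 8353 to 11485 on day 2. In Mll1-deleted cultures 4 of 8 were called higher and 1 lower on day 2 (23.3% of all genes called), with a sum of 3332 to 6308. On day 4, 7 were higher and 1 lower (29.6% of all genes called), with a sum of 3436 to 6899. Between the genotypes 5 of the 8 were lower in Mll1-deleted cultures on day 2 (4.73% of all genes called lower). On day 4 limma called 0 of the 8 (6.46% of all genes called), and 2 (Gad1 and Snap25) were lower at an unadjusted p under 0.05. The part of neuron number in the Elavl and Srrm4 differences was not tested.

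Beside the rise of Nova1, markers of the oligodendrocyte lineage rose in the Mll1-deleted cultures. Of 8 markers, 7 were called higher on day 4 than on day 0 (13.9% of all genes called higher). The sum of the 8 went from 1105 to 2081 on day 0 to 4034 to 8861 on day 4. In wild-type cultures the sum was 2026 to 2231 on day 0 and 1475 to 1873 on day 4. Yet 3 markers were higher and 1 lower (37.5% of all genes called), and the median log2 change of the 8 was 0.41. In Mll1-deleted cultures this median was 2.53. Sums weigh the brightest markers most, so a sum and a median can move in opposite directions. On day 4, 7 of 8 were higher in Mll1-deleted than in wild-type cultures (6.46% of all genes called). Other lists rose beside Nova1 as well. In Mll1-deleted cultures 5 of 6 astrocyte markers were higher and 1 lower on day 4 (29.6% of all genes called). Their sums were 9939 to 17210 on day 0 and 24491 to 30022 on day 4. Both measured ependymal markers were higher on day 4 in these cultures (138 to 157, then 593 to 1012). In wild-type cultures the astrocyte sums were 18874 to 20786 and 24224 to 30422, and the ependymal sums 149.8 to 161 and 702 to 1139. Between the genotypes, 2, 3 and 2 of the 6 astrocyte markers were lower in Mll1-deleted cultures on days 0, 1 and 2. Of all genes, 10.1%, 7.45% and 8.74% were called on these days. The part of these cell types in the Nova1 result was not tested. Beside the fall of Ptbp1, the 3 measured proliferation markers fell in both genotypes by day 4. Of all genes, 20.4% were called lower in wild-type and 15.7% in Mll1-deleted cultures. The marker sums went from 5405 to 6956 to 478 to 852 in wild-type and from 4029 to 5888 to 945 to 1416 in Mll1-deleted cultures. The part of proliferation in the fall of Ptbp1 was not tested either.

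Likeness of pattern was measured by Pearson's r of log2 intensity over the 24 arrays, which share mice, with 16650 genes above the lower quartile of the arrays on average. The genes most like Elavl2 were Nrxn3 (r = 0.970), a presynaptic adhesion protein, Dcx (0.960) and Mex3b (0.959), an RNA-binding protein. Those most like Elavl3 were Slc32a1 (0.941), the vesicular transporter of GABA, Grik3 (0.926), a kainate receptor subunit, and Pde4dip (0.925). Elavl4 was most like Itih5 (0.952), Bcl11b (0.933), a zinc finger transcription factor, and Slc32a1 (0.930).

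For Srrm4 the nearest were E130006D01Rik (0.902), Slc32a1 (0.898) and Pde4dip (0.898), so that Slc32a1 was among the 3 nearest of 3 of the 7 genes. Nova1 had a separate set, Prkcq (0.906), a protein kinase C isoform, Osgin2 (0.865) and Dscam (0.858), a neuronal adhesion protein. Ptbp1 was nearest to Gart (0.935), an enzyme of purine synthesis, Mettl1 (0.929), a tRNA methyltransferase, and Vars (0.928), a tRNA synthetase. Ptbp2 had the least close neighbours, the transcription factor Creb1 (0.826), the chromatin remodelling subunit Smarcd1 (0.792) and Zfp397 (0.786). Among the 7 genes, r between the Elavl genes was 0.860 to 0.875, Srrm4 had 0.781 to 0.850 with them, and Nova1 had 0.0994 to 0.286 with these 4 genes.

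Of 35 other RNA-binding and splicing regulators listed, 33 were measured, and 9 were called higher and 8 lower in wild-type cultures on day 2, with a median change of 0.06. On day 4, 9 were higher and 14 lower, against 6 higher and 10 lower in Mll1-deleted cultures. The shares called can be read against those of all genes, 33.7% on day 2 in wild-type cultures. On day 4 these were 37.5% in wild-type and 29.6% in Mll1-deleted cultures. Celf3, a neuronal member of the CELF family of splicing factors, rose by 2.17 ± 0.28 SE on day 2 and 1.96 ± 0.28 on day 4 in wild-type cultures, and by 1.66 ± 0.28 on day 4 in Mll1-deleted ones. Its relative Celf4 rose by 1.30 ± 0.27 and 0.82 ± 0.27 on day 4.

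Rbfox2, a splicing factor that binds GCAUG, rose by 1.21 ± 0.25 on day 4 in wild-type cultures and changed by -0.06 ± 0.25 in Mll1-deleted ones, a difference of changes of -1.27 ± 0.36 (adjusted p = 0.0365). Among general splicing factors, Srsf2 fell by 1.07 ± 0.12 on day 4 in wild-type and by 0.32 ± 0.12 in Mll1-deleted cultures (difference of changes 0.75 ± 0.17, adjusted p = 0.0102). Srsf1 fell by 0.98 ± 0.13 and 0.36 ± 0.13, and Hnrnpl by 0.85 ± 0.11 and 0.45 ± 0.11. On day 0, 5 of the 33 were higher and 0 lower in Mll1-deleted cultures, where 10.1% of all genes were called. On day 2, 2 were higher and 4 lower, where 8.74% of all genes were called.

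**Figure D4:**
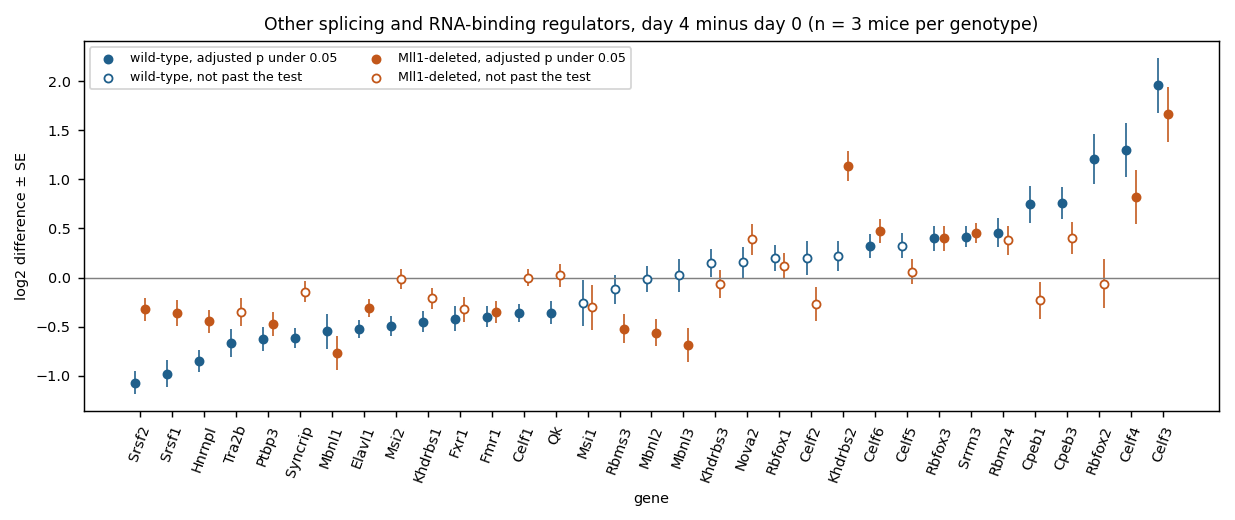
Change in intensity from day 0 to day 4 (log2 ± SE, n = 3 mice per genotype) of the 33 other regulators, in the order of the wild-type change, where filled points passed an adjusted p of 0.05. Srsf2 stands at the wild-type low end (-1.07) and Celf3 at the high end (1.96).

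Some transcripts with a known link to the 7 regulators were also read at gene level, which does not report their splicing. Of transcripts bound by neuronal Elavl proteins, Mapt (tau) rose in both genotypes, by 1.41 ± 0.32 SE in wild-type and 2.29 ± 0.32 in Mll1-deleted cultures on day 2. On day 0 Mapt was 48.4, 54.5 and 100 in Mll1-deleted mice 489, 814 and 858. It was 103, 110 and 107 in wild-type mice 818, 862 and 870. On day 2 these cultures gave 332, 307 and 301 (Mll1-deleted) and 257, 303 and 290 (wild-type). The genotypes were not called different for Mapt on either day. Gap43, a growth cone protein whose message Elavl4 stabilises, fell in both genotypes by day 2 while Elavl4 rose, and on day 4 was lower than on day 0 in wild-type cultures. In wild-type mice 818, 862 and 870 Gap43 went from 1623, 1431 and 1440.3 on day 0 to 683, 573 and 474 on day 2 (-1.39 ± 0.22, adjusted p = 3.45e-05) and 435, 472 and 392 on day 4 (-1.79 ± 0.22, adjusted p = 9.18e-07). In Mll1-deleted mice 489, 814 and 858 Gap43 was 993, 1999 and 1739.8 on day 0, 519, 676 and 706 on day 1, 582, 576 and 846 on day 2 (-1.20 ± 0.22, adjusted p = 0.00038) and 1305, 1161 and 1953 on day 4 (-0.07 ± 0.22, adjusted p = 0.837). The difference of changes was 0.19 ± 0.31 on day 2 (adjusted p = 0.857) and 1.72 ± 0.31 on day 4 (adjusted p = 0.00192).

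Gphn (gephyrin, the scaffold of inhibitory synapses and a Nova target) moved in opposite directions in the genotypes. Its intensity was 719, 640.4 and 694 on day 0 and 388, 385 and 327 on day 4 in wild-type mice 818, 862 and 870 (-0.90 ± 0.12, adjusted p = 1.42e-06). It was 330.4, 296 and 416 on day 0 and 478, 432 and 484 on day 4 in Mll1-deleted mice 489, 814 and 858 (0.43 ± 0.12, adjusted p = 0.00633). The difference of changes was 1.33 ± 0.16 (adjusted p = 4.53e-05).

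Of the transcripts under Ptbp control, Dlg4 (PSD-95) fell by 0.65 ± 0.13 on day 4 in wild-type cultures and changed by 0.10 ± 0.13 in Mll1-deleted ones. Flna (filamin A) fell by 0.84 ± 0.16 in Mll1-deleted cultures on day 4, from a higher start than in wild-type cultures. In Mll1-deleted mice 489, 814 and 858 it went from 3914, 5646 and 4462 on day 0 to 2605, 2755 and 2375 on day 4. In wild-type mice 818, 862 and 870 it went from 3088, 2751 and 2612 to 2657, 2196 and 2187. Ctdsp1, a phosphatase that works with REST, rose in wild-type cultures on day 1 (0.61 ± 0.17, adjusted p = 0.0114) and did not pass from day 0 to day 2 or day 4 in either genotype. Rest, the repressor of neuronal genes whose splicing Srrm4 alters, fell by 0.48 ± 0.14 in wild-type and 0.46 ± 0.14 in Mll1-deleted cultures on day 4. Of the other genes listed with it, Mef2d fell by 0.41 ± 0.11 and 0.60 ± 0.11 on day 4. Bin1 fell by 0.90 ± 0.15 in wild-type and 0.64 ± 0.15 in Mll1-deleted cultures on day 2. On day 4 it was lower by 0.71 ± 0.15 in wild-type cultures, while the Mll1-deleted change did not pass (-0.29 ± 0.15, adjusted p = 0.158).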

How the data were processed

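RNA of cultured subventricular zone cells was measured on Affymetrix arrays, with the genotype, mouse and day of each array taken from the labels. The deposited table holds 1 intensity for each of 28350 probe sets per array, which the authors made with RMA in Affymetrix Power Tools and build mm9, per the submitters' processing notes (versions are not given there). RMA subtracts background, makes the quantiles of the arrays equal and summarises the probes of a set. The arrays then have nearly the same distribution, so changes are relative to the other genes. The deposited intensities are linear (3.48 to 30298), which was inferred from the values, and log2 was computed from them here.

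Of the probe sets, 22232 carry 1 symbol and were used, with older symbols updated on 2127 of them. Among several probe sets of a gene (576 genes) the brightest on average was kept, giving 21072 genes.

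The tests were those of limma 3.58.1, run in R 4.3.3. Time comparisons and differences of changes came from 8 group means on all 24 arrays, genotypes on a day from the same model with mice as random effects (consensus correlation 0.165), and the mean of 4 days from 6 mouse means. In each of 18 comparisons, p-values (2-sided) were adjusted by Benjamini-Hochberg over the 21072 genes, and called means an adjusted p under 0.05. SE is that of the log2 difference. Simulated 2-fold changes among 21072 genes were recovered in 88% of cases for wild-type day 2 against day 0, and 1.5-fold changes in 46%. The simulation changed only a small part of the genes and held no mouse effect. In the real comparison 33.7% of all genes were called, so these shares need not hold for it.

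The same mouse gave the arrays of all 4 days, per the labels. After the day means were removed, the median r between arrays of the same mouse was 0.216 (wild-type) and 0.31 (Mll1-deleted). Between mice it was -0.123 and -0.143, but removing means of 3 mice makes this value negative by itself. Because of the positive r within a mouse, the mouse as a fixed block was run for time comparisons and differences of changes.

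The genes named are the 7 regulators, the 3 genes most correlated with each, the 3 largest rises and 3 largest falls among called wild-type changes of the other regulators, linked transcripts (some of those listed are not reported here), cell type markers and Kmt2a. The members and lists were chosen with earlier results of these data known. Promoters came from RefSeq tables on GRCm38.p6, while the arrays' notes name mm9. Figures were drawn with matplotlib 3.10.9.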

Additional observations from a re-analysis of the deposited data

Results flagged for a closer look

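The change from day 0 differed between the genotypes, by the test of the difference itself, for 2 of the 7 genes. That test was run without the mouse as a block, and with the block more of the 7 genes passed, as given below. Nova1 rose more in Mll1-deleted than in wild-type cultures, by 1.64 on the log2 scale on day 2 (adjusted p = 0.00346) and by 1.99 on day 4 (adjusted p = 0.000698), and was higher than on day 0 in 3 of 3 Mll1-deleted cultures on both days. Srrm4 rose less in Mll1-deleted cultures, with a difference of -1.23 on day 2 (adjusted p = 0.00138), while it was higher than on day 0 in 3 of 3 wild-type cultures. The Nova1 difference on day 2 was lost without mouse 818 (1.46, adjusted p = 0.0605). With the second Nova1 probe set the differences were 2.38 and 2.63.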

How the results depend on the processing

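The 9 kinds of alternative gave 1624 repeats of the 126 values of the 7 genes, in which 0 changed sign, 1533 kept their side of the threshold, 48 lost a call and 43 gained one. Of 43 called values, 25 held under every alternative run. Only 3 mice per group and the low intensities of Srrm4 limit what could be seen. So do Elavl4 intensities close to the lower quartile of the arrays, in Mll1-deleted cultures on day 0 and in most of them on day 1. Neither leaving out the random mouse effect nor probe sets with cross-hybridisation codes other than 1 changed the number of the 7 genes called.

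Shifting the arrays to the same median moved changes from day 0 by -0.14 in wild-type cultures on days 2 and 4, by -0.09 and -0.13 in Mll1-deleted ones, and differences between the genotypes by 0.06 or less. The number of the 7 genes called between the genotypes on day 4 was 2 rather than 1 with this shift, with the filter, with the offset and on the arrays of that day alone. From day 2 to day 4 in wild-type cultures it was 2 rather than 1 with the shift, the filter and the offset, 3 on those arrays alone and 4 with the replicate block. On the arrays of the groups compared alone, it was 1 rather than 2 in Mll1-deleted cultures on day 1 and 3 rather than 5 on day 2.

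The replicate block, which pairs the arrays of a mouse, took the number of the 7 genes called from 0 to 2 for the difference of changes on day 1, from 2 to 4 on day 2, and from 0 to 2 in Mll1-deleted cultures from day 1 to day 2 and from day 2 to day 4. Apart from these and the step from day 2 to day 4 in wild-type cultures (1 to 4), it changed no count of the 7 genes by over 1.5 times, and the single calls it changed stand beside their results. It could not be run for genotypes on a day, since each mouse has 1 genotype. Over all genes the block raised the counts called from 513 to 1031, 1012 to 1860 and 1229 to 2148 for the differences of changes on days 1, 2 and 4, from 1045 to 1867 for wild-type day 2 against day 1, and from 82 to 586 for that step in Mll1-deleted cultures.

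Fitted on the arrays compared alone, the counts over all genes were 679 rather than 2610 in Mll1-deleted cultures on day 1, 1315 rather than 2132, 809 rather than 1570 and 773 rather than 1361 between the genotypes on days 0, 1 and 4, 297 rather than 513 for the difference of changes on day 1, and 0 rather than 82 for Mll1-deleted day 2 against day 1. These fits hold fewer arrays, and the cause of the other shifts was not tested.

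Leaving out each mouse in turn, the number of the 7 genes called ranged from 1 to 3 (2 with all mice) on day 1, 5 to 6 (6) on day 2 and 4 to 5 (5) on day 4 in wild-type cultures, 1 to 5 (5) from day 1 to day 2 and 0 to 3 (1) from day 2 to day 4. In Mll1-deleted cultures it ranged from 0 to 2 (2), 3 to 5 (5) and 3 to 5 (5) on days 1, 2 and 4. Between the genotypes it ranged from 0 to 3 (1), 1 to 1 (1), 4 to 5 (5) and 1 to 2 (1) on days 0, 1, 2 and 4 and from 1 to 4 (1) for the mean of 4 days. For the differences of changes it ranged from 0 to 2 (0), 1 to 5 (2) and 1 to 1 (1) on days 1, 2 and 4. Over all genes, leaving out a mouse moved these counts by over 1.5 times at its lowest or highest: 207 to 1462 (1045 with all mice) for wild-type day 2 against day 1 and 974 to 2954 (2563) for day 4 against day 2, 3554 to 5710 (5363) on wild-type day 1, and 1057 to 2427 (2610), 3217 to 4826 (4916) and 4024 to 6294 (6231) on Mll1-deleted days 1, 2 and 4. Between consecutive days in Mll1-deleted cultures they were 5 to 203 (82) and 1097 to 3062 (3136). Between the genotypes they were 1181 to 3018 (2132), 830 to 2758 (1570), 911 to 2259 (1842) and 675 to 1605 (1361) on days 0, 1, 2 and 4 and 668 to 2592 (1539) for the mean, and for differences of changes 159 to 1451 (513), 390 to 1690 (1012) and 421 to 2014 (1229). Mouse 858 decided the upper ends for the 7 genes for the mean of 4 days and for the difference of changes on day 2.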
